A study of Mus musculus with 8 samples.

Results

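Nr2f2, Aplnr, Apln, Emcn, Stab1, Stab2, Lyve1 and Prox1 are markers of venous, lymphatic and scavenger endothelium. They were followed here in cells sorted from an embryonic region that includes the aorta but is not made of arteries alone. They were chosen by name, as 8 of the 24015 genes counted, for marking endothelium that is not arterial. RNA was sequenced from E11.5 mouse embryos, wild type or Sl/Sl, whose AGM (aorta-gonad-mesonephros) region was dissected with the vitelline and umbilical arteries (AGM+VU). Sl/Sl embryos carry, on both copies of the chromosome, a deletion that removes Kitl, the gene for the ligand of the Kit receptor, and the Steel line was kept on a C57BL/6 background. The study used the series to compare endothelium and hematopoietic clusters with and without Kitl.

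There were 4 groups with 2 libraries each, and each library held 100 cells sorted from tissue of embryos pooled by genotype. Wild type endothelium and Sl/Sl endothelium were sorted as Ter119- VE-Cadherin+ Kit- CD41- CD45- cells. Wild type clusters and Sl/Sl clusters were sorted as Ter119- VE-Cadherin+ Kit+ cells, so VE-Cadherin, the product of Cdh5, was required of all 4 groups. CD41 and CD45 were gated out of endothelium and were not used for clusters. The sample labels name the embryonic dorsal aorta as the tissue, and the sort did not separate aortic from vitelline or umbilical cells, nor 1 kind of vessel from another. In these bulk libraries, fewer cells of a type and less RNA per cell cannot be told apart.

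Arteries, veins and lymphatic vessels are lined by endothelium with different programs. Nr2f2 (COUP-TFII) is a nuclear receptor that holds Notch-driven arterial genes down in veins and works with Prox1, the transcription factor that starts lymphatic identity. Aplnr is the receptor for the peptide apelin, the product of Apln, and is enriched in veins, while Apln marks sprouting tip cells. Emcn (endomucin) is a sialomucin of venous and capillary surfaces that is also found on the early embryonic aorta. Stab1 and Stab2 are scavenger receptors of sinusoids, where they take up modified proteins and hyaluronan, and Lyve1 is a hyaluronan receptor of lymphatic vessels. Stab1 and Lyve1 are also made by tissue macrophages, and Nr2f2 by mesenchyme.

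All 8 markers were detected, and all 8 passed the filter on low counts. In endothelium they formed 3 tiers of level: Emcn far above the others, Nr2f2, Aplnr and Stab1 in the middle, and Stab2, Apln, Lyve1 and Prox1 low. Of the 8, 5 were higher in endothelium than in clusters over both genotypes: Emcn, Stab2, Nr2f2, Aplnr and Stab1. No marker passed the edgeR test between Sl/Sl and wild type in either cell type, and neither did Kitl, the deleted gene. DESeq2 called Kitl in both cell types and, of the markers, Nr2f2 in clusters.

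The libraries held between 8933236 and 13428214 counts on genes, and a count of 0 allows up to 3 counts, a level of 0.209 to 0.357 CPM (counts scaled to library totals of equal size). Smart-seq2, which copies whole polyadenylated transcripts and amplifies them by PCR, attaches no molecular identifiers, so such limits cover counting error only. Kitl, the deleted gene, was counted 1250 and 923 times in wild type endothelium against 6 and 2 times in the Sl/Sl libraries of that cell type. For clusters its counts were 110 and 0 with Kitl intact and 1 and 3 in Sl/Sl, so wild type clusters replicate 2 held no Kitl count. Of the cells' other sort markers, Kit was at 64.1 to 84.6 CPM in endothelium against 224 to 378 CPM in clusters and Ptprc (CD45) was at 0.606 to 1.27 CPM in endothelium against 106 to 304 CPM in clusters. Cdh5, the gene for VE-Cadherin, was at 452 to 655 CPM in endothelium but at 218 and 11.98 CPM in wild type clusters and 149 and 46.0 CPM in Sl/Sl clusters, although all groups were sorted for its product. Itga2b (CD41) was at 4.21 and 4.44 CPM in wild type endothelium against 22.0 and 13.1 CPM in wild type clusters. In Sl/Sl its levels overlapped, at 9.54 and 10.7 CPM in endothelium and 8.95 and 18.9 CPM in clusters (log2 -0.46, edgeR adjusted p = 0.884), although CD41+ cells were gated out of endothelium. The cluster libraries differed in what else they held. The summed level of 15 pan-endothelial genes, Emcn left out, was 1447 and 521 CPM for wild type clusters and 3305 and 940 CPM in Sl/Sl clusters, against 6614 to 7420 CPM in the 4 endothelial libraries. That of 14 mesenchymal genes was highest in Sl/Sl clusters replicate 2, at 5517 CPM with Lum as the top gene in clusters, against 438 to 1223 CPM in the other cluster libraries and 408 to 1986 CPM in endothelium. That of 15 macrophage genes, led by Lyz2, was 725 to 1279 CPM in clusters and 8.84 to 37.3 CPM in endothelium. That of 9 neural crest and cardiac genes separated the genotypes in clusters, at 5.26 and 12.6 CPM in wild type and 335 and 340 CPM in Sl/Sl, against 14.2 to 35.6 CPM in endothelium. Nearly all of it was Actc1, the cardiac actin gene, with the other 8 genes summing to 0.328 and 12.2 CPM in the Sl/Sl cluster libraries. That of 10 erythroid genes was 266 CPM in Sl/Sl clusters replicate 1, most of it the globin gene Hbb-y, and 24.4 to 68.3 CPM in the other cluster libraries. The series calls the 2 libraries of a group biological replicates, but the labels do not tie libraries to litters or sorts, so p-values measure only the spread between these samples.

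The sequences just before the start of 5 markers are shown, because these were the ones called higher in endothelium over both genotypes. Each is the 250 bases before the 5′ end of the gene in the deposited annotation, read from the mm9 genome on the gene's strand. The 5′ ends lay within 70 bases of a transcript start in the GENCODE annotation of that genome. Of these windows, only that of Aplnr was not found in a RefSeq promoter sequence of its gene. Capitals mark GGAAG, 1 form of the ETS core, on either strand. ETS factors are the transcription factors that endothelial enhancers are best known for. The windows are chr7:77511633-77511882 (- strand) for Nr2f2, chr2:84976267-84976516 (+ strand) for Aplnr, chr3:137003792-137004041 (+ strand) for Emcn, chr14:31981828-31982077 (- strand) for Stab1 and chr10:86470688-86470937 (- strand) for Stab2.
Nr2f2: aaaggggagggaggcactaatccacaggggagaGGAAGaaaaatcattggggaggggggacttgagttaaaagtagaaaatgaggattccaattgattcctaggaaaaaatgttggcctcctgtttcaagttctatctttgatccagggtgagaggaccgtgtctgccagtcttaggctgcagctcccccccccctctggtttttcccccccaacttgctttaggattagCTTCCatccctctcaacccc
Aplnr: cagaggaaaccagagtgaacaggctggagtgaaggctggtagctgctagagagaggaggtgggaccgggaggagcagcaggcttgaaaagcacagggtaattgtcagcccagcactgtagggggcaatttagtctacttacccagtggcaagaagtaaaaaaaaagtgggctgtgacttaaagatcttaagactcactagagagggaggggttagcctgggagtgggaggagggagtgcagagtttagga
Emcn: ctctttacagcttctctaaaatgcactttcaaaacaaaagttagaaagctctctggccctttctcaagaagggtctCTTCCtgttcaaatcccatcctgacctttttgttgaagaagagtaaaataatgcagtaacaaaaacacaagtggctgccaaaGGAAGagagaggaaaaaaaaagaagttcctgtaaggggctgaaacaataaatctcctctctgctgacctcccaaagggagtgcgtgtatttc
Stab1: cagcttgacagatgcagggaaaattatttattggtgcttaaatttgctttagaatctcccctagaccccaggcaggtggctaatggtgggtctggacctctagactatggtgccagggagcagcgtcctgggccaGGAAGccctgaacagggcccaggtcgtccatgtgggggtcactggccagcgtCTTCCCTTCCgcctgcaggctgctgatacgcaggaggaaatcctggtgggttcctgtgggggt
Stab2: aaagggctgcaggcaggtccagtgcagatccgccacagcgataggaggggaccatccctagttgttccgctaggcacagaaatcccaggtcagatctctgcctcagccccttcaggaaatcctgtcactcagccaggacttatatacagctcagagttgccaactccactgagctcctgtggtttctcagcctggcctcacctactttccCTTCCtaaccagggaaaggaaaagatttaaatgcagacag

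This form, GGAAG, was in 7 of the 8 windows, all but that of Aplnr, and in 64.0% of the 23810 promoter windows of the same length. Shorter ETS cores such as GGAA, which the Aplnr window holds, were not searched. The SOX core ACAAT, on either strand, was in the windows of Aplnr and Emcn and in 24.9% of all windows. The nuclear receptor half-site AGGTCA, on either strand, was in the windows of Emcn, which held 2, and Stab2, and in 12.5% of all windows. The GATA motif AGATAA was in 0 of the 8 and in 9.03% of all windows. No match of 1 motif overlapped a match of another in these 8 windows, and a match is only a run of letters. The genes lie on 7 chromosomes. Nr2f2 (chromosome 7, 77496836 to 77511632, 4 exons in the deposited annotation) and Lyve1 (chromosome 7, 117994121 to 118006467, 6 exons) share 1 of them. Aplnr (chromosome 2, 84976517 to 84980080) has a single exon, and Apln (chromosome X, 45378323 to 45388029) has 3. Emcn (chromosome 3, 137004042 to 137094033) has 12 exons and Prox1 (chromosome 1, 191945658 to 191994559) has 5. Stab1 (chromosome 14, 31952203 to 31981827) and Stab2 (chromosome 10, 86303955 to 86470687) have 69 exons each. Stab2 is on the chromosome of Kitl, 13.0 Mb away, and had 690 and 360 counts in Sl/Sl endothelium.

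Levels of different genes are compared as RPKM, counts scaled to exon length and to the library's total of counts on genes, given as mean ± SD of the 2 libraries. In wild type endothelium Emcn stood at 972 ± 91.1 RPKM, Nr2f2 at 56.5 ± 1.00, Aplnr at 45.9 ± 6.17 and Stab1 at 28.9 ± 3.16. The rest were lower, with Stab2 at 5.28 ± 2.29, Apln at 2.61 ± 0.65, Lyve1 at 1.90 ± 0.82 and Prox1 at 0.84 ± 0.41 RPKM. Neighbours in this order did not overlap between libraries, except Apln and Lyve1. In Sl/Sl endothelium the order was the same but for Aplnr, at 53.3 ± 26.3 RPKM, which stood above Nr2f2, at 28.1 ± 1.23 RPKM. There Emcn was at 1136 ± 24.9 RPKM, Stab1 at 20.1 ± 0.82, Stab2 at 6.04 ± 1.54, Apln at 2.81 ± 2.72, Lyve1 at 2.72 ± 1.93 and Prox1 at 1.43 ± 0.42. Apln overlapped Lyve1, and Lyve1 overlapped Prox1. For scale, the arterial genes Jag1, Efnb2 and Nrp1 averaged 164, 168 and 168 RPKM over the 4 endothelial libraries, above each marker but Emcn. These were picked from 20 arterial genes for the smallest p between endothelium and clusters, so they need not stand for arterial genes in general.

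In clusters the order was less settled. Emcn led in wild type clusters at 46.4 ± 34.9 RPKM, followed by Nr2f2 at 6.55 ± 2.30 RPKM, and neither overlapped the next gene. From Aplnr, at 1.94 ± 2.49 RPKM, down to Apln, which was at 0 counts in both libraries, every neighbour overlapped the next. In Sl/Sl clusters Emcn was at 175 ± 200 RPKM and Nr2f2 at 29.1 ± 25.9 RPKM, and all neighbours overlapped.

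**Figure D1:**
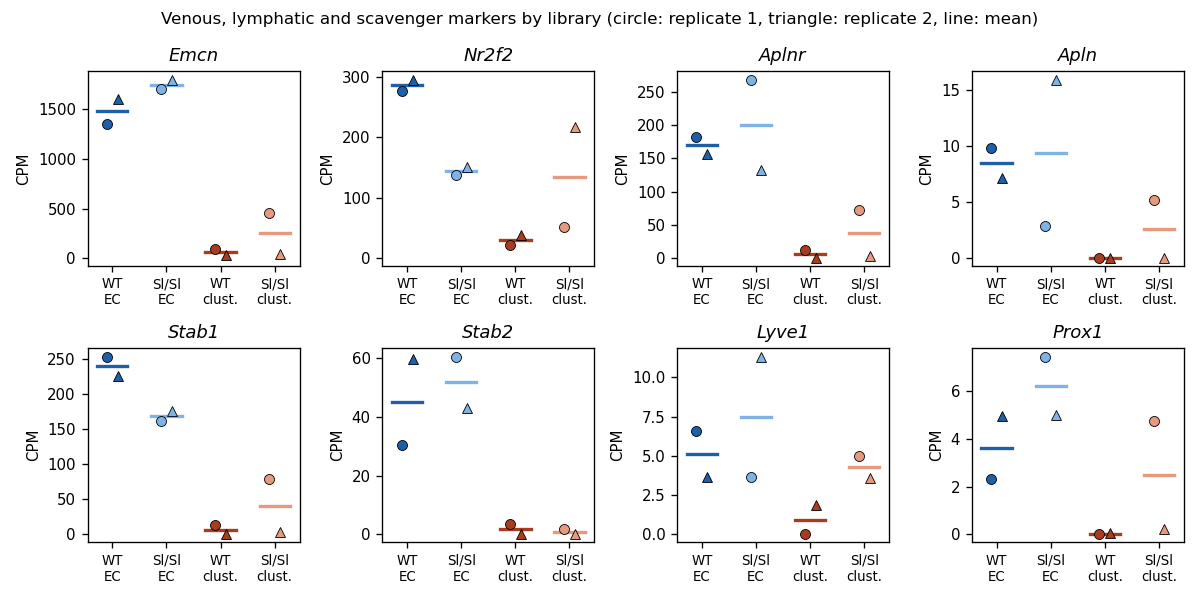
Level of each marker in the 8 libraries, in CPM with TMM-scaled totals (linear axis), with wild type (WT) and Sl/Sl endothelium (EC) in blue and wild type and Sl/Sl clusters (clust.) in red. Circles are replicate 1, triangles replicate 2 and lines the mean of both. For Emcn, Aplnr, Stab1 and Stab2 all endothelial points sit above all cluster points, and for Nr2f2 the point of Sl/Sl clusters replicate 2, at 217 CPM, sits between the Sl/Sl and the wild type endothelium.

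Endothelium was compared with clusters to ask where the markers of non-arterial vessels are expressed among the VE-Cadherin+ cells of the AGM+VU. Of the 8 markers, 5 passed the test over both genotypes (edgeR quasi-likelihood test, Benjamini-Hochberg adjusted p under 0.1), all of them higher in endothelium, where 8.48% of the 13908 genes tested were called higher. The median log2 fold change of the 8 was 3.62, or 3.52 with markers that a group held at 0 counts set to their lower bound, against -0.07 over all genes tested. For 4 of the 8, Emcn, Aplnr, Stab1 and Stab2, every endothelial library lay above every cluster library, as for 10.1% of all genes. Emcn, Nr2f2 and Stab2 passed in each of the 8 fits that left out 1 library. Aplnr and Stab1 were lost without wild type endothelium replicate 1 or 2 or Sl/Sl endothelium replicate 1, which left 3 markers past the test. With at least 10 counts asked of every library, Emcn and Nr2f2 were the 2 that passed, since the other 3 were no longer tested. DESeq2 called 7 of the 8, all but Lyve1, and 12.2% of all genes as higher.

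Emcn, the endomucin gene, was at 1352 and 1605 CPM in wild type endothelium, and the Sl/Sl endothelial libraries held 1702 and 1793 CPM. In clusters it was at 96.2 and 31.0 CPM for wild type and 453.9 and 45.4 CPM in Sl/Sl. The cell types did not overlap, and the highest cluster library, Sl/Sl clusters replicate 1, was also the one with the most pan-endothelial transcripts. Emcn was 12.8-fold higher in endothelium (log2 3.67, SE 0.64, edgeR adjusted p = 0.00789). Without Sl/Sl clusters replicate 1 the log2 fold change was 4.90.

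Nr2f2, the venous nuclear receptor, was at 277 and 295 CPM in wild type endothelium, and the Sl/Sl endothelial libraries held 138 and 150.2 CPM. In clusters it was at 22.2 and 38.9 CPM for wild type and 51.5 and 217 CPM in Sl/Sl. The cell types overlapped, because Sl/Sl clusters replicate 2 lay above both Sl/Sl endothelial libraries. Nr2f2 was 3.17-fold higher in endothelium over both genotypes (log2 1.66, SE 0.41, edgeR adjusted p = 0.0327), the smallest change of the 5 that passed. Sl/Sl clusters replicate 2 was also the library with the highest mesenchymal sum, at 5517 CPM with all 14 genes detected, and the part of that RNA in its Nr2f2 count was not tested. Without that library the log2 fold change over both genotypes was 2.35. In wild type endothelium the mesenchymal sums of the 2 libraries were 1986 and 408 CPM, beside Nr2f2 levels of 277 and 295 CPM.

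Aplnr, the apelin receptor, was at 183 and 157 CPM in wild type endothelium, and the Sl/Sl endothelial libraries held 267 and 132 CPM. Its cluster levels were 12.2 and 0.62 CPM for wild type and 72.9 and 2.58 CPM in Sl/Sl, so replicate 1 was the higher one in both genotypes and no cluster library reached endothelium. Aplnr was 11.8-fold higher in endothelium (log2 3.56, SE 1.01, edgeR adjusted p = 0.0537). Its log2 fold change ran from 3.06 without wild type clusters replicate 2, when it did not pass (edgeR adjusted p = 0.112), to 5.49 without Sl/Sl clusters replicate 1.

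Apln, its ligand, was low, with 124 and 71 counts in wild type endothelium, while Sl/Sl endothelium had 33 and 133. In clusters it had 63 counts in Sl/Sl clusters replicate 1 and 0 counts in the other 3 libraries. At 5.17 CPM, that 1 cluster library lay above the lowest endothelial library, which was at 2.89 CPM. The difference did not pass the test over both genotypes (log2 5.74, SE 1.96, edgeR adjusted p = 0.105), and its fitted fold change depends on the prior count because wild type clusters were at 0. Without Sl/Sl clusters replicate 1 it passed, and all cluster libraries left were at 0.

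The stabilin genes differed in level but both were higher in endothelium. Stab1 was at 254 and 226 CPM in endothelium of wild type and 163 and 176 CPM in that of Sl/Sl embryos. Its cluster levels were 13.6 and 0.23 CPM for wild type and 79.0 and 3.63 CPM in Sl/Sl. It was 11.9-fold higher in endothelium (log2 3.58, SE 1.04, edgeR adjusted p = 0.0596). The log2 fold change of Stab1 was 5.33 without Sl/Sl clusters replicate 1 and 5.99 without wild type clusters replicate 1, and Stab1 did not pass without Sl/Sl clusters replicate 2 or Sl/Sl endothelium replicate 2 either. Stab2 was at 30.4 and 59.5 CPM in wild type endothelium, and the Sl/Sl endothelial libraries held 60.4 and 42.9 CPM. In clusters it was at 3.53 and 0 CPM for wild type and 1.72 and 0.21 CPM in Sl/Sl, and it was 36.8-fold higher in endothelium (log2 5.20, SE 1.17, edgeR adjusted p = 0.0239). Without Sl/Sl clusters replicate 1 the log2 fold change of Stab2 was 6.27, and without wild type clusters replicate 1 the wild type clusters left were at 0 counts. Unlike Emcn, Aplnr and Stab1, Stab2 was not higher in Sl/Sl clusters replicate 1 than in wild type clusters replicate 1. Of the cluster libraries, Sl/Sl clusters replicate 1 had the highest Stab1 level together with the highest macrophage sum (1279 CPM) and the highest pan-endothelial sum (3305 CPM), and the part of either in its Stab1 count was not tested. In endothelium, where Stab1 was high, the 15 macrophage genes summed to at most 37.3 CPM and Trem2 had 0 counts. A list of 10 hepatocyte genes, kept because Stab1 and Stab2 are also genes of liver sinusoids, summed to 68.6 to 107 CPM in endothelium and 78.2 to 127 CPM in clusters, with Trf as the top gene.

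The lymphatic markers were, with Apln, the lowest of the 8 in endothelium. Lyve1, the hyaluronan receptor, reached 83 and 36 counts in endothelium of wild type and 42 and 95 in that of Sl/Sl embryos. Wild type clusters had 0 and 24 counts of it and Sl/Sl clusters 61 and 51. The cell types overlapped, and the difference did not pass (log2 1.62, SE 1.397, edgeR adjusted p = 0.516). Prox1, the lymphatic transcription factor, reached 29 and 49 counts in endothelium of wild type and 85 and 42 in that of Sl/Sl embryos. Wild type clusters had 0 and 1 counts of it and Sl/Sl clusters 58 and 3. It did not pass either (log2 3.75, SE 1.60, edgeR adjusted p = 0.173). At the depth of these libraries, counts this low in a pool of 100 cells do not tell a low level in all cells from a few positive cells.

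**Figure D2:**
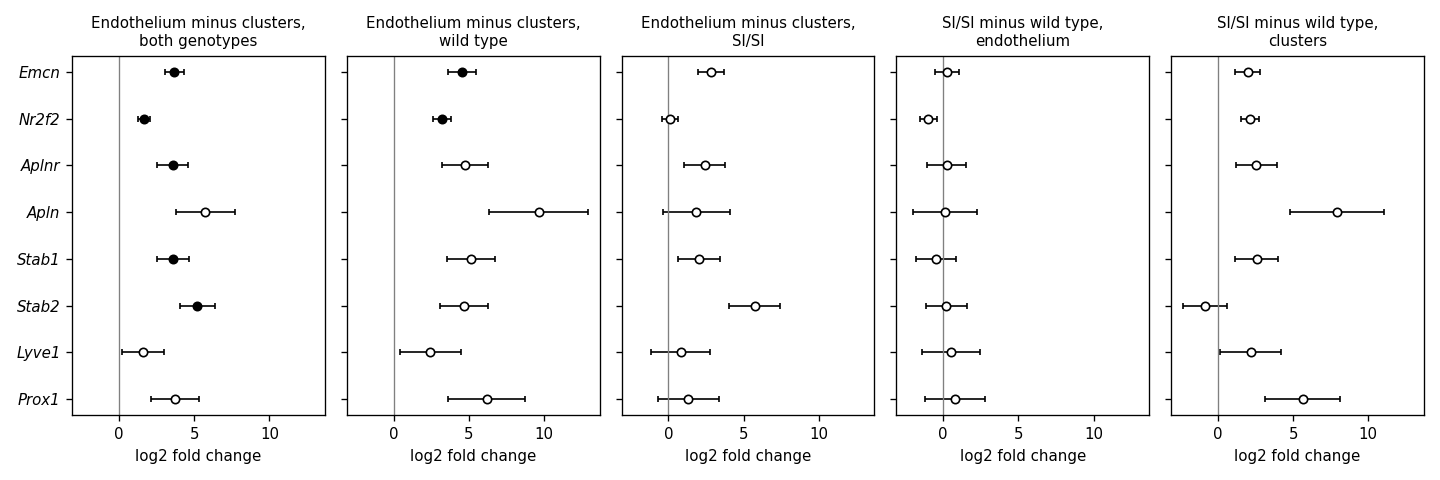
Log2 fold change of each marker in 5 comparisons from the edgeR fit of all 8 libraries, with bars of 1 SE on each side and filled points where the adjusted p is under 0.1. The 5 filled points over both genotypes and the 2 in wild type, Emcn and Nr2f2, lie on the side of endothelium, and no point is filled between genotypes. The wide points of Apln and Prox1 in the wild type and cluster panels come from groups with 0 or 1 counts.

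Within wild type, Emcn (log2 4.54, SE 0.94, adjusted p = 0.0296) and Nr2f2 (log2 3.23, SE 0.61, adjusted p = 0.0212) were higher in endothelium by the edgeR test, 2 of 8 against 4.56% of all genes called higher. In levels, all 8 markers were above clusters in both wild type endothelial libraries, as were 25.1% of all genes. Of those that did not pass, Stab1 had a log2 fold change of 5.12 (edgeR adjusted p = 0.113), Aplnr of 4.73 (edgeR adjusted p = 0.124) and Stab2 of 4.67 (edgeR adjusted p = 0.155). Apln did not pass either (edgeR adjusted p = 0.159). With 195 counts against 0, it was at least 34.6-fold higher with the floor of 3 counts set per library. Prox1, which did not pass (edgeR adjusted p = 0.222), had 78 counts against 1, a ratio of 84.8 with a 95% counting interval of 14.8 to 3393. Both limits cover counting error only and leave out the spread between libraries. The calls depended on single libraries, with 1 to 5 markers passing as each was left out. Without wild type clusters replicate 2, Nr2f2 passed (log2 3.65) and Emcn did not (log2 3.91). Without wild type clusters replicate 1, Emcn passed (log2 5.58), together with Aplnr, Stab1 and Stab2, and Nr2f2 did not (log2 2.88). Emcn was also lost without wild type endothelium replicate 2. Leaving out Sl/Sl clusters replicate 1 or 2, which changes only the shared estimate of the spread here, gave 4 and 5 markers.

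Within Sl/Sl, no marker passed the edgeR test, where 0.985% of all genes were called higher in endothelium. Stab2 (log2 5.74, SE 1.71, adjusted p = 0.164 by edgeR) and Emcn (log2 2.81, SE 0.87, adjusted p = 0.181 by edgeR) were the 2 markers with an unadjusted p under 0.05, beside 6.53% of all genes higher at that level, and DESeq2 called these 2 and 4.85% of all genes as higher. For 5 of 8 markers, Aplnr, Emcn, Stab1, Stab2 and Prox1, endothelium lay above clusters without overlap, as for 22% of all genes. The log2 fold change of Nr2f2 was 0.10 (SE 0.56), and it was 1.48 without Sl/Sl clusters replicate 2 and -0.59 without Sl/Sl clusters replicate 1. Leaving out Sl/Sl clusters replicate 1 let Emcn pass, and leaving out either wild type cluster library let Stab2 pass.

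Because cluster libraries held different amounts of endothelial RNA, each marker was also set against the summed CPM of the 15 pan-endothelial genes in its own library. Emcn came to 19.4 to 24.3% of that sum in endothelium and to 6.65, 5.94, 13.7 and 4.83% in wild type clusters 1 and 2 and Sl/Sl clusters 1 and 2. It was lower in all 4 cluster libraries on this scale too. Stab2 came to 0.436 to 0.899% in endothelium and to 0.244, 0, 0.0522 and 0.0223% in the same order of clusters, likewise without overlap. Aplnr came to 1.78 to 3.73% in endothelium, and Sl/Sl clusters replicate 1, at 2.21%, lay within that range while the other cluster libraries were at 0.119 to 0.846%. Stab1 showed the same layout, with 2.27 to 3.65% in endothelium, 2.39% in Sl/Sl clusters replicate 1 and 0.0448 to 0.941% in the other cluster libraries. Nr2f2 came to 1.93 to 4.47% in endothelium and to 1.54, 7.47, 1.56 and 23.0% in clusters. Both replicate 2 cluster libraries, of wild type and of Sl/Sl, were thus above endothelium and both replicate 1 libraries below it. Lyve1 came to 0.0514 to 0.152% in endothelium and to 0, 0.358, 0.152 and 0.379% in clusters, so the replicate 2 cluster libraries lay above endothelium and the replicate 1 libraries did not. Apln came to 0.0403 to 0.213% in endothelium, with 0.156% in Sl/Sl clusters replicate 1 and 0 in the other cluster libraries. Prox1 came to 0.0331 to 0.104% in endothelium and to 0, 0.0149, 0.144 and 0.0223% in clusters, so Sl/Sl clusters replicate 1 lay above endothelium.

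**Figure D3:**
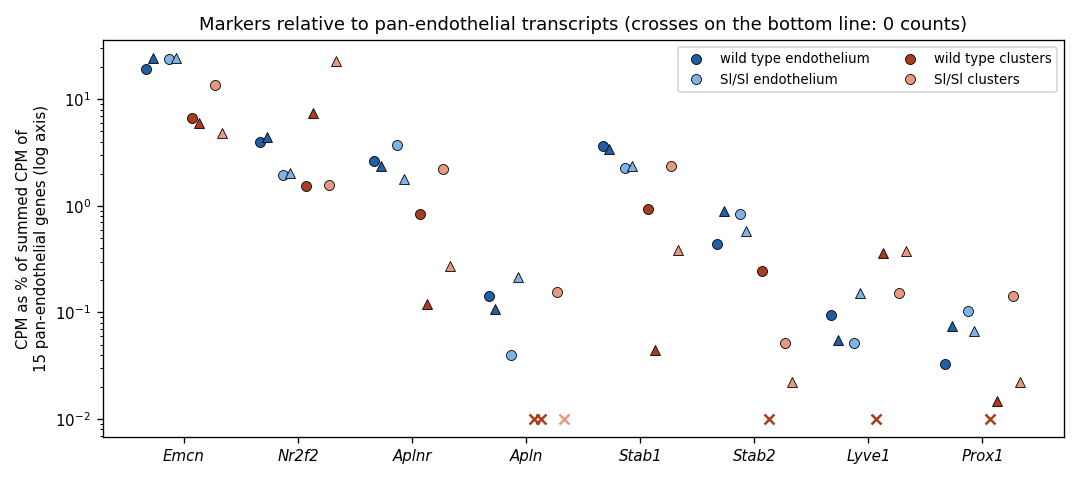
CPM of each marker as a percentage of the summed CPM of 15 pan-endothelial genes in the same library, on a log axis, with blue points for endothelium, red points for clusters, circles for replicate 1, triangles for replicate 2 and crosses on the bottom line for 0 counts. For Emcn and Stab2 all cluster points lie below all endothelial points, while for Nr2f2 the cluster points lie on both sides, from 1.54% to 23.0%.

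Sl/Sl and wild type endothelium were compared to ask whether loss of Kitl goes with another endothelial program. No marker passed (0 of 8, edgeR, all adjusted p = 1), none had an unadjusted p under 0.05, and 0% of all genes were called. Kitl, the deleted gene, was called by DESeq2 (adjusted p = 0.000121) but not by edgeR (log2 -7.91, unadjusted p = 0.00278 by edgeR). A lack of calls in this comparison therefore does not show that a marker was unchanged. Over all genes 580 (4.17%) had an unadjusted p under 0.05 by edgeR, and DESeq2 called 179 genes (1.37%), none of the 8 among them. Both Nr2f2 libraries of Sl/Sl endothelium, at 138 and 150.2 CPM, lay below both of wild type, at 277 and 295 CPM (log2 -0.99, SE 0.57, unadjusted p = 0.114 by edgeR). Of the 14 mesenchymal genes 12 were also lower in Sl/Sl endothelium (median log2 -0.64, 0 called), while their sums overlapped, at 659 and 1388 CPM against 1986 and 408 CPM. Without wild type endothelium replicate 1, 10 of the 14 were higher and 4 lower (median 1.01). Nr2f2 ran from -1.06 to -0.93 as each library was left out. The part of the mesenchymal genes in the Nr2f2 difference was not tested. Stab1 was also lower without overlap (log2 -0.50, SE 1.33). Emcn (log2 0.24, SE 0.81) and Prox1 (log2 0.78, SE 2.01) were higher without overlap. Of all genes, 13.5% were higher and 14.9% lower in Sl/Sl endothelium without overlap. Apln, Aplnr, Stab2 and Lyve1 overlapped between genotypes, with log2 fold changes of 0.14, 0.23, 0.20 and 0.55 and SEs of 2.14, 1.28, 1.37 and 1.93.

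The same comparison in clusters gave 0 of 8 markers and 0% of all genes called by edgeR, with 587 genes (4.22%) at an unadjusted p under 0.05, and 175 genes (1.37%) called by DESeq2. Nr2f2, Apln, Emcn and Prox1 were the 4 markers at an unadjusted p under 0.05, all higher in Sl/Sl, as were 3.41% of all genes. Nr2f2 was at 51.5 and 217 CPM in Sl/Sl clusters against 22.2 and 38.9 CPM in wild type clusters, without overlap. Its log2 fold change was 2.13 (SE 0.59, unadjusted p = 0.00525 and adjusted p = 0.696 by edgeR), and by DESeq2 its adjusted p was 0.0278. All 14 mesenchymal genes were likewise higher in Sl/Sl clusters (median log2 1.44, 0 called). Leaving out Sl/Sl clusters replicate 2, the library with the high mesenchymal sum, brought Nr2f2 to 0.75 and left 2 of the 14 higher and 11 lower, with a median of -4.47. Actc1, at 335 and 328 CPM in Sl/Sl clusters against 5.26 and 12.6 CPM in wild type clusters, was also higher in both Sl/Sl libraries. It was nearly level between those 2 libraries, where Nr2f2 was at 51.5 and 217 CPM. The part of the mesenchymal or the Actc1 signal in the Nr2f2 values was not tested. Lyve1, at 5.01 and 3.56 CPM against 0 and 1.87 CPM, and Prox1, at 4.76 and 0.21 CPM against 0 and 0.08 CPM, were the other markers without overlap, and 16.4% of all genes were higher in this way. The levels of Prox1 rest on 58 and 3 counts against 0 and 1. The log2 fold changes of Emcn (1.97), Aplnr (2.55) and Stab1 (2.58) rested on Sl/Sl clusters replicate 1, in which the pan-endothelial sum was also highest, and without that library they were -0.48, -1.30 and -0.92. The part of that library's endothelial RNA in those values was not tested. The median over the 8 markers was 2.37, against 0.99 for the 15 pan-endothelial genes, 1.04 for 20 arterial genes, 1.44 for the 14 mesenchymal genes and 0.03 for all genes tested. It rested on Sl/Sl clusters replicate 1. Without that library the median of the 8 markers was -0.24, with 3 higher, 4 lower and Apln at 0, and those of the other lists were -0.17 for the pan-endothelial, 0.05 for the arterial and 2.43 for the mesenchymal genes.

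Nr2f2 was the 1 marker without overlap between genotypes in both cell types on opposite sides, lower in Sl/Sl endothelium and higher in Sl/Sl clusters. Of all genes, 14.9% were lower without overlap in Sl/Sl endothelium and 16.4% higher without overlap in Sl/Sl clusters. The share of all genes with both was not counted. For Nr2f2 the difference between the 2 changes was 3.12 on the log2 scale (SE 0.81, unadjusted p = 0.00382 and adjusted p = 0.902 by edgeR). By DESeq2 its adjusted p was 0.0280. No marker passed this test by edgeR, where 0% of all genes were called, and DESeq2 called 1.3%. The value of Nr2f2 ranged from 1.74 to 3.81 as libraries were left out 1 at a time. All 14 mesenchymal genes had a difference of the same sign as Nr2f2 (median 1.94, 0 called), and without Sl/Sl clusters replicate 2, where that of Nr2f2 was 1.74, 6 of the 14 did (median -2.02). Without wild type endothelium replicate 1, 10 of the 14 did (median 0.59).

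Other genes of the same vessel types were then followed. Of 8 other venous genes tested, 5 were higher in endothelium over both genotypes and 1 was lower, beside 8.48% of all genes higher and 8.12% lower. Nrp2, a co-receptor for VEGF-C, had a log2 fold change of 3.39 (edgeR adjusted p = 0.00179), Ephb4, the venous ephrin receptor, of 2.81 (edgeR adjusted p = 0.00196) and Vwf, the clotting factor of endothelial granules, of 2.45 (edgeR adjusted p = 0.00497). Flt4 and Dab2 were the others that were higher, and Selp, which platelets and megakaryocytes also make, was lower in endothelium. Ackr1, a chemokine receptor of venules, was near 0 in endothelium, and Nt5e was near 0 in all 8 libraries.

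Of 11 other lymphatic genes tested, 4 were higher and 1 lower. Vegfc, the lymphatic growth factor, had a log2 fold change of 1.98 (edgeR adjusted p = 0.00599) and Cldn5, a tight junction protein of all endothelium, of 2.86 (edgeR adjusted p = 0.0214). Flt4, the VEGF-C receptor, and Nrp2 were also higher, and Gata2, which blood progenitors use, was lower. Flt4 and Nrp2 were in the venous list too, and Cldn5 was in the pan-endothelial list too, so these calls are not separate. Ccl21a, Mmrn1 and Reln, which are used as markers of lymphatic endothelium, were at or near 0, with 0 counts of Ccl21a and Mmrn1 in all 8 libraries and 1 count of Reln in 1 of them. They were picked from the list of 15 after their values were seen. Of the 11 genes tested, 8 had a log2 fold change above 0 and 3 below. Of 12 scavenger genes, 2 were higher and 2 lower. Gpr182, an endothelial receptor, had 85 and 142 counts in endothelium of wild type embryos, 149 and 243 in that of Sl/Sl embryos and 0 counts in all 4 cluster libraries (edgeR adjusted p = 0.00636). Dab2, an endocytic adaptor that was in the venous list too, had a log2 fold change of 1.93 (edgeR adjusted p = 0.00799). The Fc receptor gene Fcgr2b was lower in endothelium (log2 -6.15, edgeR adjusted p = 0.0240), as was Clec4g. Wild type clusters replicate 1 held Fcgr2b at 0.259 CPM, within the endothelial range of 0.238 to 0.318 CPM, and the other cluster libraries at 19.0 to 33.3 CPM. Macrophage sums were 8.84 to 37.3 CPM in endothelium and 725 to 1279 CPM in clusters, with 952 CPM in wild type clusters replicate 1. The part of macrophage RNA in the Fcgr2b and Clec4g values was not tested. Of 7 further genes of apelin signaling, among them Arrb1, Arrb2 and Gnai2, 0 passed.

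Of 20 arterial genes, 16 were higher in endothelium and 0 lower, with a median log2 fold change of 2.99, against 2.19 for the venous, 1.99 for the lymphatic, 0.58 for the scavenger and 2.37 for the pan-endothelial genes. The venous, lymphatic, scavenger and pan-endothelial lists share genes, so their medians are not independent. Jag1, a Notch ligand, had a log2 fold change of 3.37, Efnb2, the arterial ephrin, of 2.69, and Nrp1, the arterial VEGF co-receptor, of 2.35. The same libraries held both sets. In endothelium the summed level of the 20 arterial genes was 5345 to 6205 CPM and that of the 8 markers 2114 to 2358 CPM. Most of the marker sum was Emcn, which is also found on the early embryonic aorta. In clusters the sums were 286 to 1575 CPM and 72.7 to 674 CPM. The sort cannot tell cells that made both sets from a mixture of arterial and other endothelial cells.

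**Figure D4:**
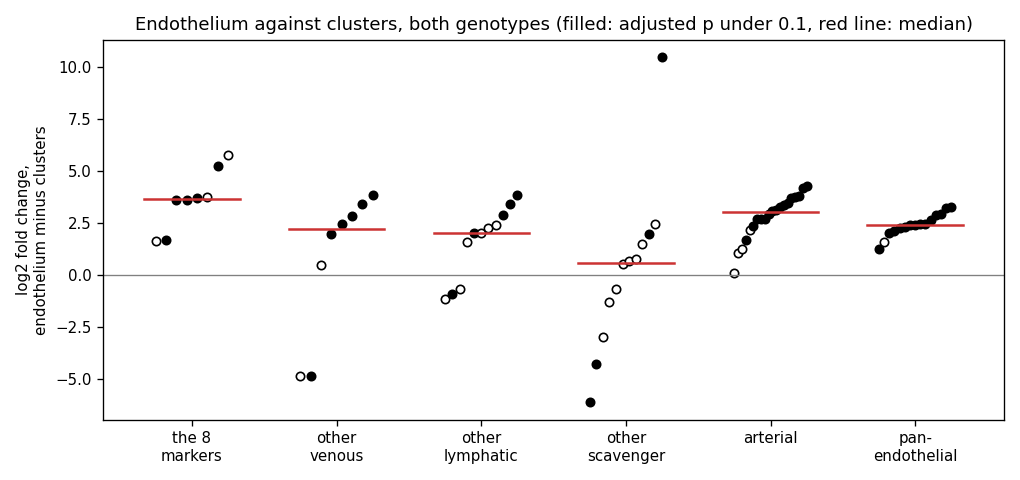
Log2 fold change of endothelium against clusters over both genotypes, for the 8 markers and for other genes of each list, with 1 point per gene tested, filled where the edgeR adjusted p is under 0.1, and a red line at the list's median. All 20 arterial and all 15 pan-endothelial genes lie above 0, while the scavenger genes lie on both sides, and the point above 10 is Gpr182, whose value depends on the prior count since clusters held 0 counts.

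The genes whose levels followed each marker most closely were found by Pearson's correlation of log2 CPM over the 8 libraries, as a description, since the libraries share cell types, genotypes and depth. For Emcn they were Ramp2 (r = 0.996), Plvap (r = 0.995) and Osmr (r = 0.992). For Aplnr they were Upp1 (r = 0.992), Tek (r = 0.992) and Klhl4 (r = 0.988), and for Stab1 Upp1 (r = 0.989), Mall (r = 0.988) and Tek (r = 0.988). Upp1 and Tek were thus near both. For Stab2 they were Fscn1 (r = 0.992), Tgfbr3 (r = 0.987) and Sox13 (r = 0.986). For Nr2f2 they were Arrdc3 (r = 0.965), Jazf1 (r = 0.960) and Tfpt (r = 0.957), the lowest values of the 8 markers. For Apln, Lyve1 and Prox1, which had 0 counts in 1 or more cluster libraries, the nearest genes were D830026I12Rik (r = 0.993), Stap2 (r = 0.988) and 2610001J05Rik (r = 0.982).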

How the data were processed

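RNA-Seq was carried out on 8 libraries of 100 sorted cells. Per the labels and the study's methods, the authors prepared Smart-seq2 libraries, sequenced 75 base read pairs, aligned them to mm9 with STAR 2.4.2a and assigned them to genes with featureCounts (Subread 1.4.5), and the submitters' processing notes also name DESeq2 1.12.4. The deposited table holds raw counts for each gene, with exon coordinates and length, neither normalized nor pooled. The annotation, the strand setting and the treatment of multi-mapping reads are not given in the sources used here, so overlapping or near-identical genes can share reads. Of the gene names, 27 had turned into dates.

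The markers, the other gene lists and the tests were chosen with earlier results of these data known. Libraries were grouped by their titles. In R 4.3.3, edgeR 4.0.16 with limma 3.58.1 was fitted to all 8 libraries with 4 group means, TMM factors and filterByExpr, which kept 13908 of 24015 genes, and the quasi-likelihood test was used with Benjamini-Hochberg adjustment over all of them and a threshold of 0.1. The common dispersion was 0.667, with 4 residual and 5.24 prior degrees of freedom, and the counts on genes per library (8933236 to 13428214) limited the precision of low genes. SE was the log2 fold change divided by the root of F. CPM used TMM-scaled totals and RPKM plain totals of counts on genes. Promoter windows were read from the mm9 genome. The named genes were the 8 markers, the sort markers and Kitl, up to 3 genes with the smallest p of each vessel list and of an apelin signaling list, and the 3 genes most correlated with each marker (log2 CPM with a prior count of 2). Genes named beyond these were chosen after their values were seen. An exact permutation test was planned for markers below the filter, and none was. Alternatives were DESeq2 1.42.0, RLE factors, no filter, at least 10 counts in every library, a threshold of 0.05, the groups of a comparison alone, a replicate block, TMM-scaled RPKM and leaving out each library. The edgeR step was tested on simulated data.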

Additional observations from a re-analysis of the deposited data

Results flagged for a closer look

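The genotype difference of Nr2f2 was picked out because it differed between the cell types: both Sl/Sl endothelial libraries lay below both wild type ones, and both Sl/Sl cluster libraries lay above both wild type ones. The change in clusters minus that in endothelium was 3.12 on the log2 scale (SE 0.81, unadjusted p = 0.00382, adjusted p = 0.902 by edgeR), and DESeq2 gave an adjusted p of 0.0280. Without Sl/Sl clusters replicate 2, which also had the highest mesenchymal sum, it was 1.74. Of the 14 mesenchymal genes, 12 were lower in Sl/Sl endothelium, 14 higher in Sl/Sl clusters and 14 of 14 positive for the difference (median 1.94). Without Sl/Sl clusters replicate 2, 6 of 14 were positive for the difference (median -2.02). Without wild type endothelium replicate 1, 10 of the 14 were higher in Sl/Sl endothelium and 4 lower (median 1.01). Nr2f2 stayed lower there, from -1.06 to -0.93, as each library was left out. Actc1 was also higher in both Sl/Sl cluster libraries, at 335 and 328 CPM against 5.26 and 12.6 CPM. The part of these transcripts in the Nr2f2 values was not tested. Groups of 2 libraries are too small for a test of single libraries that stand apart, so none was run. Of all genes, 14.9% were lower without overlap in Sl/Sl endothelium and 16.4% higher without overlap in Sl/Sl clusters. The share of all genes with both was not counted.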

How the results depend on the processing

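Each group had 2 libraries, and Apln, Lyve1, Prox1 and Stab2 had at least 1 cluster library at 0 counts. Over both genotypes edgeR called 2310 genes and 5 markers. DESeq2 called 3616 genes and 7 markers, a threshold of 0.05 left 1488 genes and 3 markers, and at least 10 counts in every library left 2 markers. Within wild type the counts were 1146 genes and 2 markers, which became 2580 and 7 with DESeq2 and 1990 and 6 without a filter, 657 genes at 0.05, and 4 markers with the groups of the comparison alone. Within Sl/Sl 393 genes and 0 markers became 1614 and 2 with DESeq2, 1266 and 4 without a filter, 256 and 1 with the groups of the comparison alone, and 222 genes at 0.05. Between genotypes edgeR called 0 genes. In endothelium DESeq2 called 179, the fit without a filter 65 and the fit of those groups alone 2, with 0 markers in each. In clusters DESeq2 called 175 genes and 1 marker, Nr2f2, the fit without a filter 253 genes and 4 markers (Nr2f2, Aplnr, Emcn and Stab1), and at least 10 counts gave 9 genes. For the interaction DESeq2 called 175 genes and 1 marker, Nr2f2, and the fit without a filter 179 genes and the same 4 markers. The cause of these shifts was not tested. RLE factors moved no marker across the threshold. With TMM-scaled totals, 28 of 32 mean RPKM values stayed within 1 SD, and the 4 that moved were Nr2f2 in wild type (58.8) and Sl/Sl endothelium (29.6), and Emcn (1196) and Stab1 (21.2) in Sl/Sl endothelium.

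Replicate numbers are shared by the labels of the groups. The study's legends give 2 sorting experiments, but neither they nor the labels say whether a number marks a sort, so the numbers were not treated as pairs. The correlation of deviations of same-numbered libraries was 0.157 between wild type and Sl/Sl clusters and -0.0025 between wild type and Sl/Sl endothelium, and -0.012 and 0.023 between the cell types within wild type and Sl/Sl. With the replicate block 5 markers passed within wild type, 1 (Emcn) within Sl/Sl, and 8 genes between genotypes in clusters, while the log2 fold changes between genotypes in endothelium turned to -0.069 for Aplnr and -0.14 for Stab2.

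As each library was left out, the genes called ran from 1438 to 1983 over both genotypes, 412 to 1107 within wild type, 115 to 450 within Sl/Sl, 0 to 13 between genotypes in clusters and 0 to 4 for the interaction, and the markers called from 3 to 6, 1 to 5 and 0 to 1 in the first 3 of these. A library left alone in its group is then assumed to vary like the others. The log2 fold changes that changed sign or fell to 0 ran as follows. Within Sl/Sl, Nr2f2 ran from -0.59 to 1.48 and Lyve1 from -0.25 to 1.399. Between genotypes in endothelium, Stab2 ran from -0.20 to 0.76, Apln from -1.56 to 0.90, Aplnr from -0.37 to 0.65 and Lyve1 from -0.48 to 1.14. In clusters, Stab2 ran from -3.00 to 6.49, Aplnr from -1.30 to 5.90, Emcn from -0.48 to 3.01 and Stab1 from -0.92 to 7.40, and Apln, which did not change sign, from 0 to 8.87. For the interaction, Stab2 ran from -3.20 to 6.29, Aplnr from -1.54 to 5.66, Apln from -0.14 to 9.56, Emcn from -0.73 to 2.77 and Stab1 from -0.42 to 7.91.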
